A study of Arabidopsis thaliana with 4 samples.

Results

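The microRNAs (miRNAs) from miR771 to miR870 of the Arabidopsis thaliana registry are described here, as an array of small RNA probes measured them in seedlings. Members were taken by number alone: every experimental probe whose name runs from ath-miR771 to ath-miR870, with miR824 and miR854a left out. This gave 84 probes of 59 families, each with a sequence of its own, among 213 miRNA probes of 148 families on the array. The rule reads no measured value, but it was set with earlier results of these data known. Both left-out miRNAs were detected on all 4 arrays, and with them 7 of 86 (8.14%) would be detected on at least 1 array, in place of 5 of 84. The working name of the group calls them specific to a lineage, which the array files cannot check. Some of them, such as miR827 and miR828, are known from many flowering plants.

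Total RNA of whole seedlings was measured on 4 single-colour arrays, 1 per group. WT_control was wild type on Murashige and Skoog medium with 0 mM NaCl, and WT_salt was wild type on the same medium with 100 mM NaCl. ABR17_control and ABR17_salt were transgenic seedlings that express the cDNA of ABR17, an abscisic acid-responsive gene known from pea, on the same media. Seedlings grew for 2 weeks by the labels, whose growth text also gives 7 days. The sources used here give neither the promoter nor the number of transgenic lines. The design text names 3 biological replicates, but each group has 1 array, and the sources used here do not say whether RNA was pooled. No difference between groups therefore has a replicate check, and no p-value is given. Each probe had 12 repeat spots, whose SD measures the spotting and scan of 1 hybridisation and not the spread between seedlings.

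Plant miRNAs are cut from hairpin transcripts, mostly by DICER-LIKE1 (DCL1), are loaded into ARGONAUTE proteins, and lead to cleavage or reduced translation of mRNAs that pair with them. Older, conserved families tend to be abundant and to target developmental regulators. Younger families tend to be weakly expressed, to have 1 locus, and to pair with genes that resemble their own hairpin. Of the families here, miR822 comes from a long hairpin cut by DCL4 and targets genes of cysteine-rich DC1-domain proteins, miR823 targets the DNA methyltransferase CMT3, and miR842 targets genes of jacalin lectins. A COP1-interacting protein is listed as a target of miR834, and a histone H2A gene as a target of miR841.

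The sequences of the 5 miRNAs detected on at least 1 array come first, since the levels below rest on them. They are the target sequences of the deposited files, 5′ to 3′, with the seed (bases 2 to 8) in capitals.

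miR834: uGGUAGCAguagcggugguaa
miR823: uGGGUGGUgaucauauaagau
miR822: uGCGGGAAgcauuugcacaug
miR842: uCAUGGUCagauccgucaucc
miR841: uACGAGCCacuugaaacugaa

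All 5 were 21 bases long, as were 59 of the 79 members detected on no array. All 5 began with U, the 5′ base that ARGONAUTE1 prefers. Their GC content had a median of 52.4% (38.1% to 52.4%), against 38.1% (23.8% to 59.1%) over the 79 members detected on no array, of which 59 (74.7%) began with U. The 64 probes of families miR156 to miR408, which include the conserved ones, had a median of 51.2%. Of these 64, 49 were 21 bases long and 49 (76.6%) began with U. The 5 are few, base composition also sets how strongly a probe binds, and its part in the detection was not tested. The seeds of the 5 all differ. miR841 shares its seed with miR841b, from which it differs by 1 base, written U12G for miR841 against miR841b with positions counted from the 5′ end. Each of the other 4 had 7 or more mismatches to every other miRNA probe in alignments without gaps, shifted by up to 2 bases, with overhanging bases counted as mismatches. In the group as a whole, miR865-3p shared its seed with miR472, miR774b with miR1886.2, and miR835-3p with miR164a and miR164c.

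A second set is shown because a single spot of each probe stood far above its other 11 spots on 1 or more arrays, as described further below.

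miR841b: uACGAGCCacuggaaacugaa
miR775: uUCGAUGUcuagcagugcca
miR777: uACGCAUUgaguuucguugcuu
miR836: uCCUGUGUuuccuuugaugcgugg
miR856: uAAUCCUAccaauaacuucagc
miR860: uCAAUAGAuuggacuauguau
miR863-5p: uUAUGUCUuguugaucucaau

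By locus name, 83 of the 84 members matched a MIR gene of the RefSeq annotation (TAIR10.1), at 62 loci, and 20 of these loci overlapped a protein-coding gene. miR838 lies within DCL1, the gene of the enzyme that makes most miRNAs. The locus of miR841 (AT4G13564) overlaps HTA4, a histone H2A gene, and that of miR823 (AT3G13724) overlaps PRA8. miR834 (AT5G08210) and miR822 (AT5G03552) overlap AT5G08230 and AT5G03553, whereas MIR842 (AT1G61224) overlaps none. No MIR gene was matched to miR783.

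Few of these miRNAs were detectable in seedlings. A probe counted as detected if 6 or more of its 12 spots exceeded the mean of the 1120 blank spots of the same array plus 3 blank SD. By this rule 1 of the 84 members (1.19%) was detected on WT_control and 4 (4.76%) on WT_salt, and 0 on ABR17_control and 4 (4.76%) on ABR17_salt. Over all 213 probes the shares were 18.3%, 25.4%, 14.1% and 27.7% in the same order. In all, 5 members (5.95%) passed on some array, against 29.6% of all probes. Of these 5, 1 was detected on 3 arrays, 2 on 2 arrays and 2 on 1 array, and none on all 4.

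Families miR156 to miR408 gave 34, 43, 27 and 47 detected probes of 64 on WT_control, WT_salt, ABR17_control and ABR17_salt. At least 1 array detected 49 of them (76.6%). Families from number 1800 up, which also hold many young miRNAs, gave 6 of 49 (12.2%), a share between 2.04% and 10.2% on single arrays. Both shares of the 84 members under salt, 4.76%, thus lay below those of the higher-numbered families (8.16% on WT_salt and 10.2% on ABR17_salt). These are descriptions of 4 arrays, with no test.

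**Figure D1:**
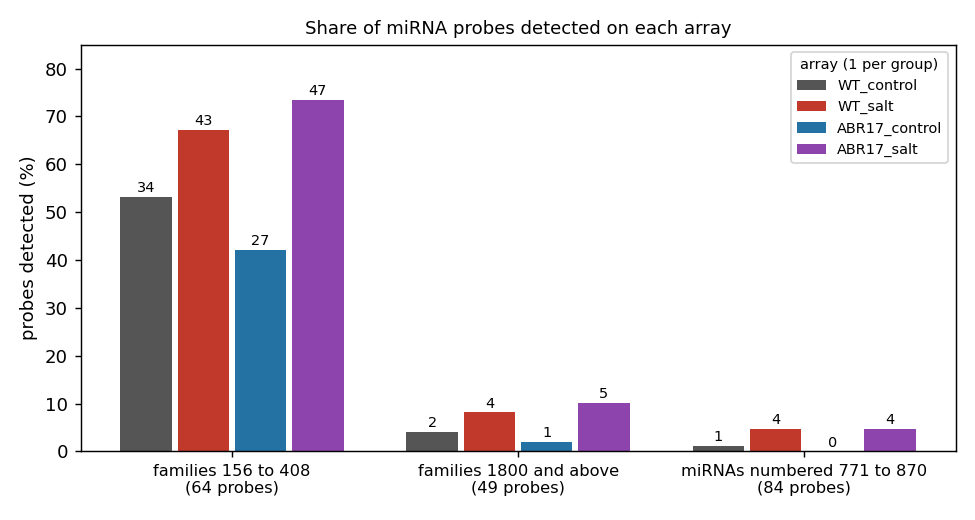
Share of probes detected on each array (vertical axis, percent), for families miR156 to miR408, families from number 1800 up and the 84 miRNAs from miR771 to miR870; numbers above the bars count detected probes, and each colour is 1 array. The 84 members stay at 4.76% or less on every array, while families miR156 to miR408 lie between 42.2% and 73.4%.

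The background, and with it the threshold, differed between arrays. The 1120 blank spots averaged 231 ± 22.2 (SD) for WT_control and 111 ± 13.2 for ABR17_control, and under salt 84.8 ± 5.52 for WT_salt and 86.5 ± 3.92 for ABR17_salt. The thresholds were accordingly 298 and 151 without salt and 101 and 98.3 under salt. WT_control and ABR17_control, with the highest thresholds, were the arrays with 1 and 0 detected members. Whether fewer were seen there because less miRNA was present or because the threshold was higher cannot be told apart. In whole seedlings, fewer cells that make a miRNA and less of it per cell cannot be told apart either.

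The 1008 spots of the members lay in a different place relative to the blanks on each array. Above the threshold were 18 spots (1.79%) on WT_control and 211 (20.9%) on WT_salt, and 5 (0.496%) on ABR17_control and 48 (4.76%) on ABR17_salt. Blank spots above it made up 0.625%, 0.357%, 0.804% and 0.268%. Undetected members alone had 6, 172, 5 and 3 spots above it, so most of the 48 on ABR17_salt came from detected members. As shares of their spots these were 0.602%, 17.9%, 0.496% and 0.313%. For undetected probes outside the group the shares were 3.94%, 20.3%, 0.421% and 6.08%. On WT_salt the spots above were spread widely: 77 of the 84 members had at least 1, whereas 6, 5 and 7 members had any on WT_control, ABR17_control and ABR17_salt. The same count for probes outside the group is not given here.

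Members below the threshold were shifted as a body on WT_salt. Measured in blank SD from the blank mean, the undetected members had a median of -0.04 on WT_control and 2.17 on WT_salt, and -0.80 on ABR17_control and 0.36 on ABR17_salt. On WT_salt all 80 undetected members had a mean above the blank mean, and on ABR17_control 7 of 84 did. The undetected probes outside the group moved in the same way, with medians of 0.21, 2.30, -0.65 and 1.17. A spot above the threshold on WT_salt is therefore no mark of these miRNAs in particular, and the part of probe-covered surface against blank surface in this shift was not tested.

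**Figure D2:**
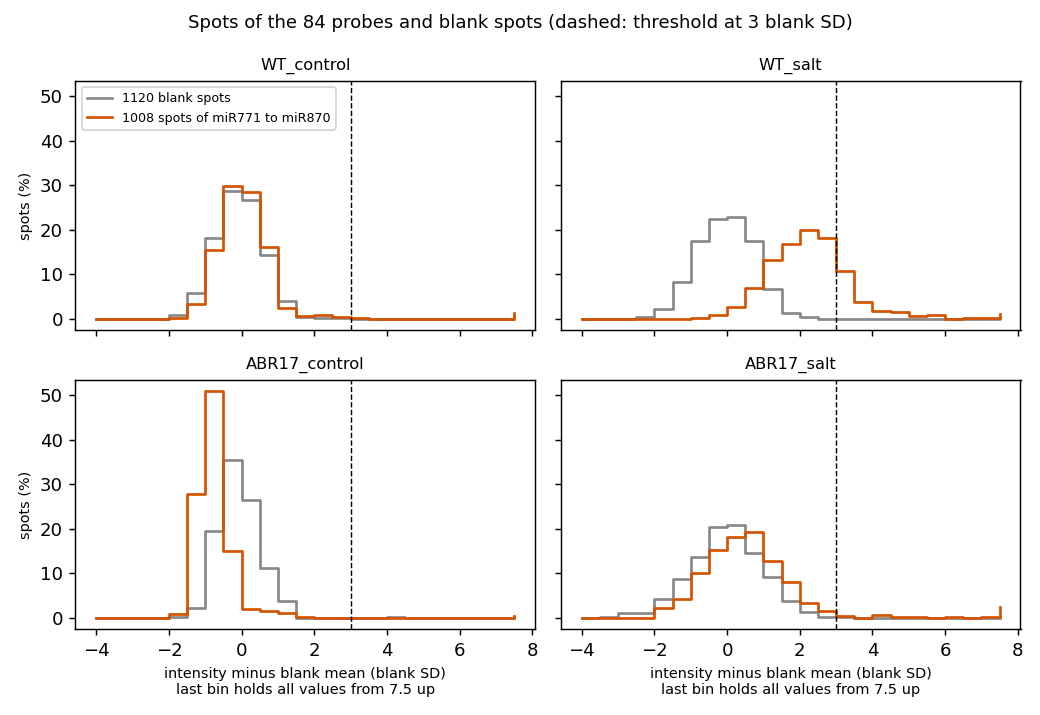
Distribution of the 1008 member spots (orange) and the 1120 blank spots (grey) on each array, as percent of spots (vertical axis) by intensity minus the blank mean in blank SD (horizontal axis; the last bin holds all higher values, the dashed line is the threshold). The orange curve lies over the grey one on WT_control and to its right on WT_salt, and to its left on ABR17_control and slightly to its right on ABR17_salt.

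miR834 was the member seen on most arrays. Its 12 spots averaged an intensity of 457 ± 38.4 (SD) on WT_control and 110 ± 7.10 on WT_salt, and 129 ± 8.00 on ABR17_control and 136 ± 9.87 on ABR17_salt. Net of the blank mean these were 226, 25.4, 17.3 and 49.0. It passed with 12, 11 and 12 spots on WT_control, WT_salt and ABR17_salt and with 0 on ABR17_control. There its spots, from 110 to 144, stayed under the threshold of 151, yet their median was the highest of the 84 members. On WT_control its lowest spot (412) was above its highest spot on each other array (154 at most). The blank mean of WT_control, 231, was also above those spots, so this raw gap is no mark of miR834. By the median of its spots miR834 ranked 30, 37, 33 and 32 of the 213 probes on WT_control, WT_salt, ABR17_control and ABR17_salt. Such ranks reflect the binding of a probe as well as the amount of a miRNA. Unlike the raw intensity, the rank was similar on the 4 arrays.

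miR823, which targets CMT3, was detected on both salt arrays. Its mean was 282 ± 18.1 on WT_control and 117 ± 7.84 on WT_salt, and 117 ± 4.60 on ABR17_control and 124 ± 9.01 on ABR17_salt. Net of the blank mean it was 51.1, 32.4, 5.64 and 37.6. It passed with 11 spots on WT_salt and 12 on ABR17_salt, and had 2 and 0 spots above the threshold on WT_control and ABR17_control. By median it was number 1 of the 84 members on WT_salt, number 2 on WT_control and ABR17_salt and number 3 on ABR17_control. The raw means of WT_salt and ABR17_control were both 117, while the thresholds were 101 and 151. Whether the amount of miR823 or the threshold made the calls differ cannot be told apart.

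miR822, a DCL4-dependent member, was detected on the same arrays as miR823. It averaged 269 ± 14.9 on WT_control and 114 ± 7.41 on WT_salt, and 122 ± 4.47 on ABR17_control and 108 ± 6.33 on ABR17_salt. Net of the blank mean it was 38.1, 29.1, 10.4 and 22.0. It passed with 11 spots on WT_salt and 12 on ABR17_salt and with 0 on the arrays without salt. Among the 84 medians it was number 3 on WT_control and ABR17_salt and number 2 on WT_salt and ABR17_control. These 3 miRNAs held the first 3 places by median on every array, ABR17_control included, where none of them was called detected.

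miR842 and miR841 were each called on 1 array, near the threshold. miR842 averaged 245 ± 11.7 on WT_control and 98.7 ± 5.14 on WT_salt, and 104 ± 5.20 on ABR17_control and 102 ± 3.72 on ABR17_salt, where 9 spots lay above the threshold. Its mean there was 15.5 above the blank mean. On ABR17_control it was below the blank mean, and its spots above the threshold numbered 0 on both arrays without salt and 3 on WT_salt. MIR846 also gives a miRNA against jacalin lectin genes, but miR846 passed on no array.

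miR841 averaged 228 ± 12.4 on WT_control and 101 ± 6.57 on WT_salt, and 103 ± 7.02 on ABR17_control and 92.1 ± 3.33 on ABR17_salt. It was called on WT_salt with 6 spots, the fewest that pass, at a mean of 16.0 above the blank mean. Just outside, with 5 spots, stood miR773b, miR774, miR846, miR847 and miR850 on the same array. The probe of miR841b, 1 base different, had 3 spots above and a median of 94.0 there, against 102 for miR841. The call of miR841 thus separates it little from the members around it.

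**Figure D3:**
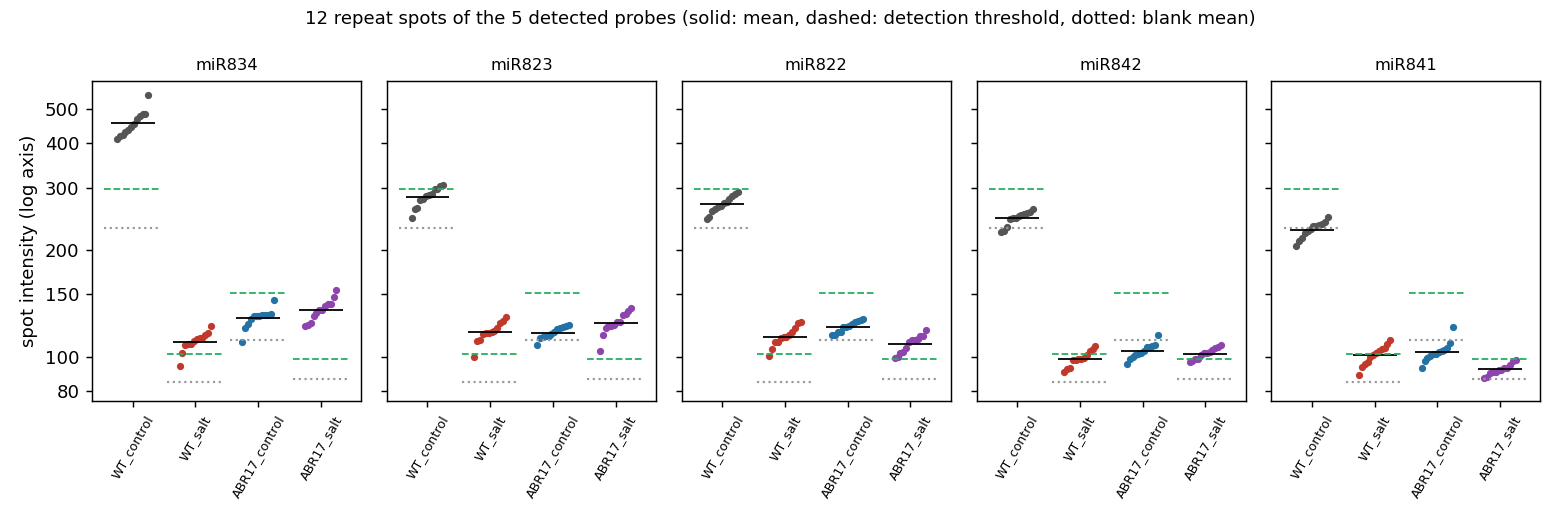
The 12 repeat spots of the 5 detected members on each array, sorted by size, as intensity on a logarithmic vertical axis (solid line, mean; dashed, detection threshold; dotted, blank mean). miR834 lies wholly above the threshold on WT_control and ABR17_salt, miR823 and miR822 have 11 spots above it on WT_salt and 12 on ABR17_salt, miR842 straddles it on the salt arrays, and miR841 straddles it on WT_salt and lies below it elsewhere.

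Other settings of detection changed WT_salt most. With 6 blank SD, with all 12 spots required, or with a threshold set from the miRNA spots themselves, no member was detected there. With 2 blank SD 69 of the 84 were, but so were 186 of all 213 probes, so this count says nothing of the members in particular. miR834 was detected on WT_control and ABR17_salt, and miR823 on ABR17_salt, under each of the 7 alternatives tried.

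**Figure D4:**
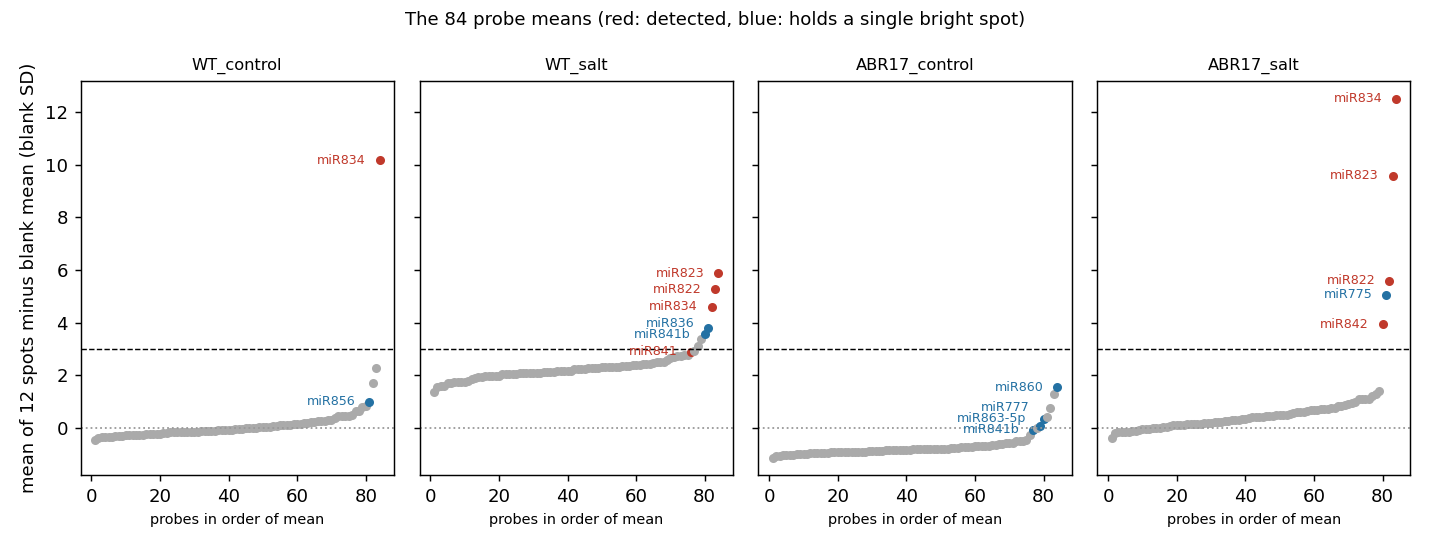
The 84 member means on each array in rising order (horizontal axis), as mean of 12 spots minus the blank mean in blank SD (vertical axis; dashed, 3 blank SD; dotted, blank mean); red points were detected, blue points hold a single bright spot. On ABR17_salt miR834 (12.5), miR823 (9.59) and miR822 (5.60) had the highest means, while the undetected members had a median of 0.36. The undetected miR775, which holds a single bright spot, came next at 5.06 (0.74 without that spot), above the detected miR842 at 3.94.

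Over the 84 members 5 (5.95%) were detected on some array, beside 29.6% of all probes. Most target groups hold too few probes to be compared with each other or with these shares. By target group, 1 of 4 probes of DCL4-dependent hairpins was detected (miR822, with miR839, miR869.1 and miR869.2 below the threshold). For DNA methylation and chromatin it was 1 of 5: miR823, with the miR773 probes, whose targets include the methyltransferase MET2, and miR778, whose targets are SUVH histone methyltransferases, below. For jacalin lectins it was 1 of 2, and among the 54 members placed in no group 2 were detected, miR834 and miR841. The other groups had none: F-box genes (miR774 and miR859), MYB factors (miR828 and miR858), a laccase (miR857), phosphate homeostasis (miR827, with miR778 counted under chromatin), auxin signalling (miR847), glucosinolate synthesis (miR826), defence (miR825 and miR863), ion transport (miR780 and miR856) and retrotransposons (miR845). miR838, grouped by its location within DCL1, was not detected either. With miR827, which phosphate starvation is known to induce, the mean lay 0.46 blank SD above the blank mean on WT_control, 2.31 above on WT_salt, 0.80 below on ABR17_control and 1.01 above on ABR17_salt. The corresponding medians over all 84 members were -0.03, 2.24, -0.80 and 0.42, so miR827 did not leave the body of undetected members on any array. Nothing here shows that these miRNAs were absent, since an array gives no count below its background.

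Among members detected on no array, the highest mean over the 4 arrays was that of miR775, at 1.74 blank SD above the blank mean, followed by miR833-5p at 1.16, miR774 at 1.01, miR777 at 0.95 and miR860 at 0.95. For miR775, miR777 and miR860 this place rests on a single bright spot. miR833-5p had 4 spots above the threshold on WT_salt and 0 on each other array. miR774, which targets F-box genes, had 5 on WT_salt and 1 on WT_control. Neither holds a bright spot.

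A single bright spot was counted where a spot lay above the threshold and at 2 times or more the median of the other 11 spots of a probe not detected on that array. There were 8 among 3924 spots (0.204%), in 7 members. The undetected probes outside the group had 14 among 4116 spots (0.340%), and the blank spots 5 among 4480 (0.112%). The probes that held one were 1 of 83 undetected members on WT_control and 2 of 80 on WT_salt, and 4 of 84 on ABR17_control and 1 of 80 on ABR17_salt. Over all undetected probes, members included, the shares were 1.72%, 5.66%, 3.83% and 1.95%. The widest gap was on WT_salt, with 2 of 80 members against 7 of 79 other undetected probes. These counts are small and carry no test.

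The brightest against its fellows was that of miR860 on ABR17_control, which read 495 while the other 11 spots had a median of 97.4, a ratio of 5.08. A calibration spot among its 8 neighbours read 4057. In the authors' deposited table miR860 had 48.9 on ABR17_control and 4.71 to 7.80 on the other arrays. The mean of 12 spots put miR860 at rank 33 of 213 on that array, and the median of the spots put it at rank 196. miR775 on ABR17_salt read 293 against 89.5 (ratio 3.27). Its mean lay 5.06 blank SD above the blank mean with this spot and 0.74 without it. In the authors' deposited table it had 28.2 on ABR17_salt and 9.10 to 13.7 elsewhere.

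miR777 on ABR17_control read 274 against 101 (ratio 2.70), with none of its 8 neighbours above the threshold. miR856, which is associated with a zinc transporter gene, read 525 against 225 on WT_control (ratio 2.33), also with no neighbour above. miR863-5p on ABR17_control read 232 against 100.7 (ratio 2.30), beside a 5S rRNA spot of 51092. In these 5 cases the deposited SD within the spot was between 8.27% and 11.2% of its mean, against medians of 4.45% to 5.37% in the other spots of the same probes.

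The remaining 3 bright spots were uneven inside. miR841b on WT_salt read 225 with an SD within the spot of 302, and on ABR17_control 224 with an SD of 374. These lay at different positions of the array design, and the other spots had medians of 93.6 and 100.2. miR836 on WT_salt read 199 with an SD of 191 against 92.9, with 4 of its 8 neighbours above the threshold, the highest at 2988. Another spot of miR836 on WT_salt was also raised, at 143 with an SD within the spot of 70.2 (ratio 1.54). For the 3 bright spots the SD within the spot was 96.1% to 167% of the mean. In the authors' deposited table miR841b had 25.0 on WT_salt and 22.3 on ABR17_control, against 8.82 on WT_control and 5.19 on ABR17_salt. By the median of its spots it ranked 206 and 138 of 213 on WT_salt and ABR17_control. How far the bright spots enter the values of that table was not tested.

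**Figure D5:**
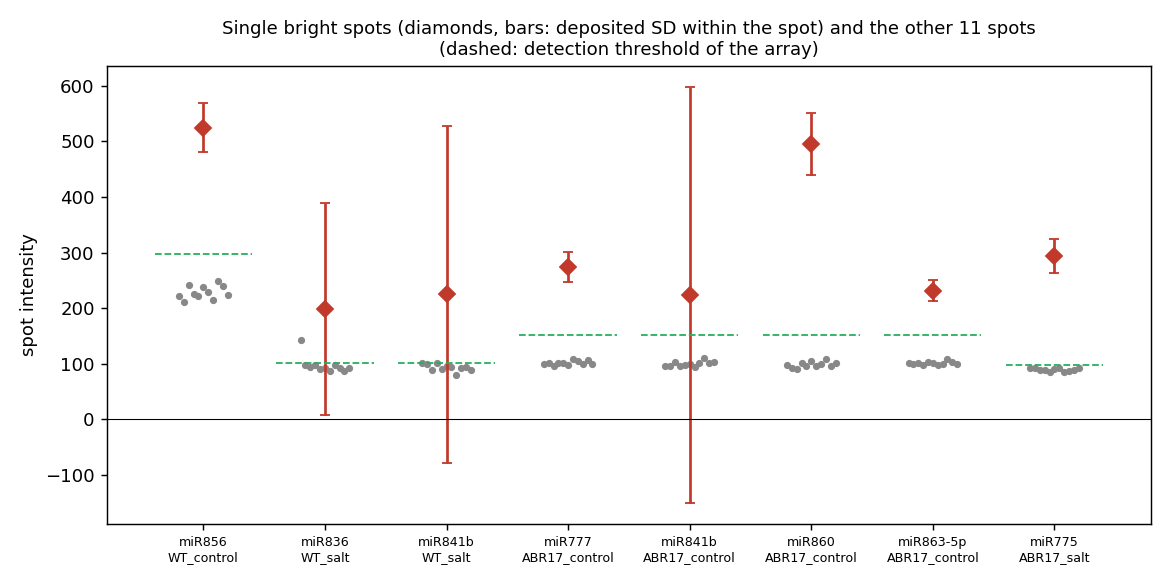
The 8 single bright spots (diamonds; bars, the deposited SD within the spot) and the other 11 spots of the same probe (grey), as intensity on a linear axis, with the detection threshold of each array dashed. Apart from 1 further raised spot of miR836, the other spots lie at or near the level of the blanks, and 3 of the diamonds have an SD close to or above their mean.

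For the comparisons between groups, intensities were background-corrected by normexp, put on the log2 scale and quantile normalised over the 213 probes. To be counted, a miRNA had to be detected on 1 or both arrays, to differ by 1 or more on that scale (2-fold), and to have repeat spots that did not overlap. No member was counted in any of the 4 comparisons. For salt in wild type, 0 of 4 members were counted. Of the 58 probes detected on 1 or both of these arrays, 3.45% were higher and 5.17% lower. For ABR17 without salt the count was 0 of 1, beside 5.13% higher and 5.13% lower of 39 such probes. For salt in ABR17 it was 0 of 4, beside 1.69% higher and 0% lower of 59. In these comparisons with ABR17_control no member had a value or bound, so none could have been counted. For ABR17 under salt it was 0 of 5, beside 0% of 62 in both directions. There and for salt in wild type, with so few members, a count of 0 lies near what the shares would give.

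miR834 came nearest. On WT_salt it was lower than on WT_control by a normalised log2 difference of -0.61 ± 0.06 (SE of repeat spots), with no overlap of the spots. The median over the 35 miRNAs detected on both arrays was 0.00. The difference was negative under the 7 alternatives that gave a value, from -1.84 to -0.45. With detection at 6 blank SD, where WT_salt no longer detected it, only a bound of -0.29 was left. The difference passed the size of 1 without normalisation (-1.84), with the blank mean subtracted (-1.30), with scaling to the 75th percentile (-1.15) and in the authors' deposited values (-1.01). Without normalisation the median of the 35 was itself -0.92. Net of the blank mean, miR834 was 8.89 times brighter on WT_control than on WT_salt, against a median ratio of 2.01 over the 35. The calibration probe PUC2MM differed between the same arrays by a factor of 6.36 and PUC2PM by 2.11. How far the brightness of WT_control enters the value of miR834 was not tested.

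miR823 and miR822 had only bounds for salt in wild type, since WT_control did not detect them, and the direction depended on the scaling. After quantile normalisation miR823 was at least 0.24 higher on WT_salt and miR822 at least 0.12 on the log2 scale. Net of the blank mean and unscaled, both were lower on WT_salt (32.4 against 51.1 for miR823, 29.1 against 38.1 for miR822). Without normalisation, and with scaling to the 75th percentile, neither had a bound in the direction of WT_salt. For miR841 no value could be given in that comparison. Nor could one be given for any member in the comparisons with ABR17_control. The lowest detected value of that array was a normalised log2 of 7.29, and no member exceeded it on the array it was compared with.

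Under salt, 3 members were detected in both genotypes, and their repeat spots overlapped in each case. miR834 was 0.33 ± 0.05 higher on ABR17_salt than on WT_salt, a value that was -0.08 with scaling to the 75th percentile and 0.65 at most. miR822 differed by -0.21 ± 0.05, between -0.55 and -0.10 over the alternatives. miR823 differed by -0.12 ± 0.05, with a sign that turned under 3 alternatives, to 0.09 without normalisation, 0.07 with cyclic loess and 0.11 in the authors' deposited values. For miR842 the bound was at least 0.15 higher on ABR17_salt, but 0.01 without normalisation and 0.98 in the authors' deposited values, and there was none with scaling to the 75th percentile. miR841 had no value. The median over the 51 miRNAs detected on both arrays was -0.06, and none of the members reached a 2-fold difference.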

How the data were processed

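The 4 deposited array files list 3968 spots each with the authors' mean density, a linear Cy3 intensity with no background subtracted per the file headers, and an SD within the spot, also an intensity. For the scanner and its software, nothing is given in the sources used here. The authors also deposited 1 processed intensity per miRNA and array, made by a method that the sources used here leave unstated. Its medians over the 84 members were 8.28, 8.31, 9.04 and 5.91 (WT_control, WT_salt, ABR17_control, ABR17_salt). These values are linear, with scale between arrays unknown. The labels' protocols name TRI-Reagent, enrichment of small RNA, ligation of a 3′ adapter and staining with Cy3.

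Blank mean and SD came from 1120 blank spots per array. For differences, normexp (limma 3.58.1, R 4.3.3, offset 50) ran over all spots, log2 values were averaged over 12 spots and quantile normalised over 213 probes. The offset draws differences of dim probes towards 0, and a difference of 0 can be a tie of rank. An SE of repeat spots has the spread of the log2 spots before quantile normalisation, and does not cover the choice of normalisation. For a probe detected on 1 array only, the other array was entered at its lowest detected value, or at the probe's own value where that was higher, as a bound. Sequences are the deposited target sequences, and locus names are from RefSeq. Python 3.11.15, pandas 2.3.3 and matplotlib 3.10.9 were used.

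Named with values were members detected on any array, the 5 undetected members with the highest mean, and every member with a bright spot. miR827 and miR841b in the account of miR841 were added after their values were seen. The members, target groups and rules were chosen with earlier results of these data known. With 1 array per group no test was made, and precision is limited by the number of arrays.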

Additional observations from a re-analysis of the deposited data

How the results depend on the processing

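No paired analysis was possible because each group has 1 array. The count of members detected moved with the threshold, chiefly on WT_salt. At 2 blank SD it was 2 on WT_control, 69 on WT_salt (186 of all 213 probes) and 69 on any array. At 6 blank SD, and likewise with all 12 spots required, it was 0 on WT_salt and 3 on any. With blank median plus 3 scaled MAD it was 2 on WT_control, 33 on WT_salt (115 of all probes) and 33 on any. With the 30 nearest blank spots it was 3 on WT_control, 1 on ABR17_control and 74 on WT_salt (197 of all probes), with 74 on any. With the mean of the 12 spots in place of the count of spots it was 7 on WT_salt and 9 on any. With the median plus 3 scaled MAD of all miRNA spots, a setting chosen after seeing the data, it was 0 on WT_salt, 1 on ABR17_control, 2 on ABR17_salt and 2 on any. Why WT_salt moved most was not tested, beyond its body of dim probes lying 2.17 blank SD above the blank mean. The count of members lower in WT_salt than in WT_control was 1 (miR834) with the blank mean subtracted, without normalisation, with the 75th percentile and in the authors' deposited values, where the count over all probes went from 3 to 6, 17, 11 and 12. That of members lower in ABR17_control than in WT_control was 1 without normalisation, miR834 again, as a bound; over all probes that setting gave 12 against 2. The causes were not tested. Bright spots at a ratio of 1.5 numbered 2 on WT_control and 7 on WT_salt, and at a ratio of 3 they numbered 0 on both and 1 on ABR17_control. The other 77 counts stayed within 1.5 times their reported value. Of single levels and differences, 36 moved by less than the spread of their spots and 27 by more. All levels among the latter moved against the authors' deposited values. Their scale is unknown, so these moves do not measure how stable a level is. The differences of miR823 and miR834 under salt, not large enough to be counted, changed sign under 3 and 1 of the alternatives. Signal over background is the limit: 79 of 84 members passed the reported threshold on no array, though on WT_salt their means lay above the blank mean.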

Other observations

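The 79 members detected on no array were compared between arrays by the median of their 12 spots. Spearman's rho across probes was 0.67 between ABR17_control and ABR17_salt, 0.61 between WT_control and ABR17_salt, 0.57 between WT_control and ABR17_control, 0.46 between WT_salt and ABR17_control, 0.43 between WT_salt and ABR17_salt and 0.16 between WT_control and WT_salt. Probes are not independent replicates, and they share their sequence and spot positions on every array. These are descriptions, and what the shared order below the threshold stands for was not tested.

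7 further spots lay above the threshold at between 1.5 and 2 times the median of the other 11, the highest ratios being those of miR832-3p on ABR17_control (1.82) and of miR826 on WT_salt (1.73).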
